A study of Mus musculus with 40 samples.

Results

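The 10 genes described here are Pf4, Ppbp, Selp, Vwf, Gp9, Gp1bb, Itga2b, Itgb3, Treml1 and Cd9, taken by symbol from a table of read counts for 35976 gene symbols because they belong to megakaryocytes and platelets. All 10 were in the table. Their levels were read in mouse bone marrow cells that lack Dnmt3a, a DNA methyltransferase, Sting, an adaptor of cytosolic DNA sensing, or both, and in wild-type (WT) cells. The libraries come from 4 kinds of cells: long-term stem cells of the blood (LT-HSC, 4 Dnmt3a knockout (KO) and 4 WT), a sort that joins granulocyte-macrophage with common myeloid progenitors (CMP/GMP, 4 and 4), progenitors of megakaryocytes and red cells (MEP, 4 KO and 3 WT), and c-kit+ marrow cells (2 WT, 2 Dnmt3a KO, 2 Sting KO and 3 double knockout, DKO). The floxed Dnmt3a allele was removed with Mx1-Cre, whose interferon-inducible promoter is active in blood cells and in other tissues. The induction, the Cre status of WT animals, the kind of Sting allele, the strain and the age are in none of the sources used. The labels name no animals, so p-values measure the spread between these libraries, which may be technical. Short-term stem cells are part of the study and were not analysed here.

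Megakaryocytes are the large marrow cells that shed platelets. They arise through committed progenitors of the myelo-erythroid tree, and a share of stem cells already carries platelet transcripts such as Vwf. In the platelet, chemokines and adhesive proteins are packed into alpha granules, receptor complexes on the surface bind von Willebrand factor and fibrinogen, and activation brings P-selectin and Treml1 from the granules to the surface. GATA1, FLI1 and other transcription factors of the GATA and ETS families drive these genes. In bulk RNA, fewer cells of a type and less RNA per cell cannot be told apart.

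Pf4 and Ppbp encode the chemokines of the alpha granule, platelet factor 4 and pro-platelet basic protein. They are neighbours in GRCm38 (mm10), at chr5:90772435-90773383 and chr5:90768518-90770063 on the plus strand. Vwf (chr6:125546774-125686679) encodes von Willebrand factor and Selp (chr1:164115264-164150026) encodes P-selectin, a granule membrane receptor for leukocytes, and endothelial cells make both as well. Gp9 (chr6:87778072-87779768) and Gp1bb (chr16:18620317-18622403) encode subunits of the glycoprotein Ib-IX-V receptor for von Willebrand factor. Itga2b (chr11:102453297-102470122) and Itgb3 (chr11:104608000-104670476) encode the 2 chains of the fibrinogen receptor, integrin alphaIIb and beta3, and Itga2b (CD41) is also made in early blood progenitors. Treml1 (chr17:48359916-48367176) encodes a receptor of the alpha granule, and Cd9 (chr6:125460266-125494791) a tetraspanin found on platelets and on stem and progenitor cells. Positions are those of whole genes in GENCODE M21. Gp1bb overlaps Sept5, and Itga2b, Cd9 and Selp overlap unnamed gene models, and no source used here gives the strand setting of the counting. The count of Gp1bb is therefore uncertain: Sept5 stood at 0 to 6.04 CPM in the sorted populations and at 24.6 to 115 CPM in c-kit+ cells, against 1.21 to 2.47 CPM of Gp1bb there.

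Libraries held 3.44 to 47.7 M reads assigned to genes (M, 1000000). Levels are counts per M reads (CPM) after TMM normalization over all 32 libraries, given per library in the order of the replicate numbers. The share of odd numbers among counts between 1 and 49 was lowest in 5 libraries, at 13.8 to 17.7%. These were LT-HSC WT 1, LT-HSC Dnmt3a KO 2 and MEP Dnmt3a KO 2, 3 and 4. It was 27.5 to 35.2% in the other 18 sorted libraries and 31.5 to 33.3% in c-kit+ libraries. Even counts thus outnumbered odd ones in all 32 libraries, and the reason was not tested. The 5 libraries had fewer detected genes than the other 18 (10706 to 12970 against 13425 to 15068). They were also shallower, at 3.44 to 25.9 M reads against 28.9 to 47.7 M. The libraries MEP Dnmt3a KO 3 and 4 and the libraries CMP/GMP WT 2 and 4 shared almost all their undetected genes, 0.065% and 0.066% of genes being found in 1 of the pair only against 5.52 to 18.9% in other pairs. Results that rest on these libraries are given with and without them. Dnmt3a itself was lower in each KO library than in each WT library of CMP/GMP and c-kit+ cells, but LT-HSC Dnmt3a KO 3 and MEP Dnmt3a KO 2 lay within the WT range. The summed level of 13 stem cell genes was 1671 to 3343 CPM in LT-HSC and 452 to 992 CPM in the other sorted cells, that of 18 erythroid genes was 9072 to 19889 CPM in MEP and 1122 to 3308 CPM in the others, and that of 13 granulocytic genes was 6403 to 32507 CPM in CMP/GMP and 117 to 3388 CPM in the others, the highest of these in LT-HSC WT 1. All 10 members passed the filter on low counts in each fit. The sum of 15 endothelial genes was 329.9 CPM in LT-HSC WT 1 and 767 to 1023 CPM in the other LT-HSC WT libraries, against 319 to 432 CPM in CMP/GMP WT and 364 to 509.8 CPM in MEP WT. Of the 15 genes, 4 had no reads in LT-HSC WT (Cdh5, Ptprb, Sox17 and Fabp4), and Cdh5 had none in any sorted library.

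**Figure D1:**
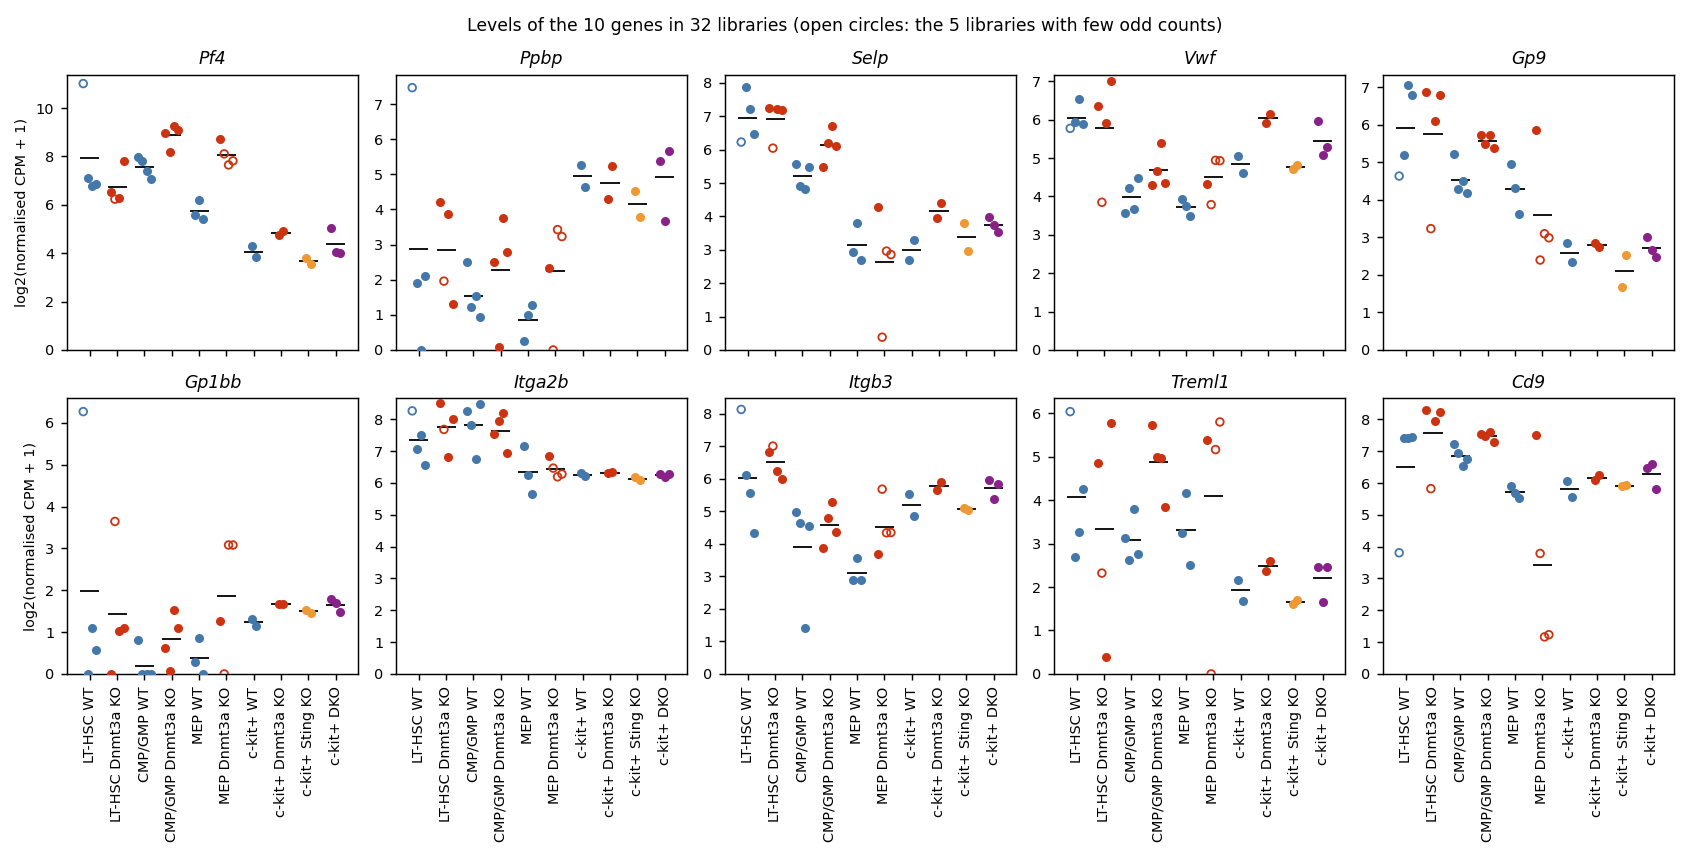
Levels of the 10 genes in each library, as log2(normalised CPM + 1), by population and genotype. Bars are means of the log values, and open circles are the 5 libraries with few odd counts. Pf4 was at 42.0 CPM or more in each sorted library and at 31.5 CPM or less in each c-kit+ library, whereas Ppbp stood between 11.8 and 50.2 CPM in c-kit+ cells and at 17.7 CPM or less in each sorted library except LT-HSC WT 1.

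The first question was where these genes are expressed among WT populations. Pf4 stood at 2069, 136, 108 and 116 CPM in LT-HSC, at 248, 221, 169.9 and 134 CPM in CMP/GMP, at 46.2, 73.3 and 42.0 CPM in MEP and at 18.9 and 13.2 CPM in c-kit+ cells. LT-HSC WT 1 was thus above every other library, and the other LT-HSC libraries lay below or at the lower end of CMP/GMP. Per kilobase of its longest coding transcript, Pf4 was the most abundant of the 10 in each WT sorted population, at a mean of 1033 CPM per kb in LT-HSC (range 184 to 3519), 329 in CMP/GMP and 91.5 in MEP, ahead of Cd9 at 107, 95.2 and 42.0. In c-kit+ WT cells Cd9 came first with 45.5 CPM per kb, followed by Ppbp with 28.2 and Pf4 with 27.3.

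Of the sorted WT populations, LT-HSC had the highest levels of Vwf and Selp. Vwf stood at 53.7, 60.9, 92.4 and 58.2 CPM in LT-HSC, at 10.8, 17.5, 11.8 and 21.5 CPM in CMP/GMP and at 14.2, 12.5 and 10.2 CPM in MEP. Each LT-HSC library was above each library of the other 2 populations, which overlapped. Selp stood at 74.0, 234, 147 and 88.0 CPM in LT-HSC, at 46.7, 29.3, 27.5 and 44.0 CPM in CMP/GMP and at 6.61, 13 and 5.51 CPM in MEP, and no 2 of these groups overlapped. Itgb3 stood at 281, 68.6, 46.4 and 19.1 CPM in LT-HSC, at 30.9, 24.0, 1.64 and 22.4 CPM in CMP/GMP and at 6.39, 10.9 and 6.37 CPM in MEP. CMP/GMP WT 3, which was low for Itgb3, was also the lowest CMP/GMP library for Itga2b, and its granulocytic sum was the highest (32507 CPM against 6403 to 9064 CPM in the other WT libraries). The part of that makeup in the levels was not tested.

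Against MEP, 4 of the 10 genes were higher in LT-HSC by the quasi-likelihood test of edgeR, adjusted by Benjamini-Hochberg over 16136 genes, of which 3.41% were called higher. The log2 fold change was 4.0 ± 0.72 (SE) for Selp (adjusted p = 0.00141), 3.70 ± 0.87 for Itgb3 (adjusted p = 0.0119), 3.48 ± 0.81 for Pf4 (adjusted p = 0.0114) and 2.40 ± 0.57 for Vwf (adjusted p = 0.0134). All 10 estimates were positive, with a median of 2.94 beside 0.187 over all genes tested, and with 1.44 beside 0.05 without LT-HSC WT 1 and 1.47 beside 0 without the 5 libraries with few odd counts. In these 4 genes, and in no other of the 10, each LT-HSC library was above each MEP library, as was the case for 11.0% of all genes tested. Of 12 tested endothelial genes 4 were called higher as well (Sox18, Emcn, Tie1 and Tek), with a median of 3.90 over the list, and 4 were without LT-HSC WT 1. Their part in Vwf and Selp, which endothelial cells also make, was not tested. Other lists shared the direction of the 10 genes. All 13 stem cell genes and all 12 tested granulocytic genes had positive estimates, with medians of 4.64 and 2.355. Without LT-HSC WT 1 these were 13 of 13 and 8 of 12. Of 17 tested erythroid genes 2 were positive in the fit of all libraries, with a median of -3.25. The size for Pf4 rested on LT-HSC WT 1: without the 5 libraries with few odd counts it was 1.16 ± 0.35 (adjusted p = 0.0267). In that fit 6 of the 10 were called higher, Cd9 and Gp9 in addition, against 7.90% of 18940 genes, with 2.50 for Itgb3, 4.22 for Selp and 2.52 for Vwf. Calls were also lost when 1 library was left out, that of Pf4 without LT-HSC WT 1, those of Itgb3 and Pf4 without MEP WT 1, that of Vwf without MEP WT 3, and those of all but Selp without MEP WT 4. With a block of genotype and replicate number the call of Pf4 was lost (log2 fold change 2.33, adjusted p = 0.0569). RLE size factors moved the median of all genes to 0.296 here and from 0.106 to 0.216 in the comparison with CMP/GMP, and the 4 calls stood.

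Against CMP/GMP, only Vwf passed the test among the 10, with a log2 fold change of 2.10 ± 0.51 in favour of LT-HSC (edgeR, adjusted p = 0.0214), and 1.85% of all genes were called higher. Genes higher in LT-HSC made up 299 of the 574 genes called in either direction, and 386 of 602 with RLE size factors. Vwf and Selp did not overlap between the groups, against 7.43% of all genes with each LT-HSC library above each CMP/GMP library. Without the 5 libraries 3 of the 10 were called higher (Gp9 2.0, Selp 2.08 and Vwf 2.19 on the log2 scale), against 5.13% of genes, while the estimate of Pf4 went from 1.66 to -0.68 and that of Ppbp from 4.38 to -0.12. The call for Vwf was lost without CMP/GMP WT 1, 2 or 3 or without LT-HSC WT 3 (adjusted p up to 0.071). It was also lost when CMP/GMP WT 2 and 4, the libraries that share their undetected genes, were summed to 1 (adjusted p = 0.0567).

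Between MEP and CMP/GMP none of the 10 passed edgeR's test, which called 1.41% of all genes in either direction, and 3 of the 10 had an unadjusted p under 0.05, as did 2086 of 16136 genes. The estimates of 8 genes were negative, led by Selp with -2.12 ± 0.65 and Pf4 with -1.82 ± 0.75. Pf4, Cd9 and Selp were lower in each MEP library than in each CMP/GMP library, against 12.5% of all genes. DESeq2 called 2 of the 10 lower in MEP, Itga2b and Selp, against 4.88% of genes. Without the 5 libraries, none of which is in these groups but which enter the shared estimate of the spread, 4 of the 10 were called lower (Cd9, Itga2b, Pf4 and Selp), against 4.13% of genes.

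**Figure D2:**
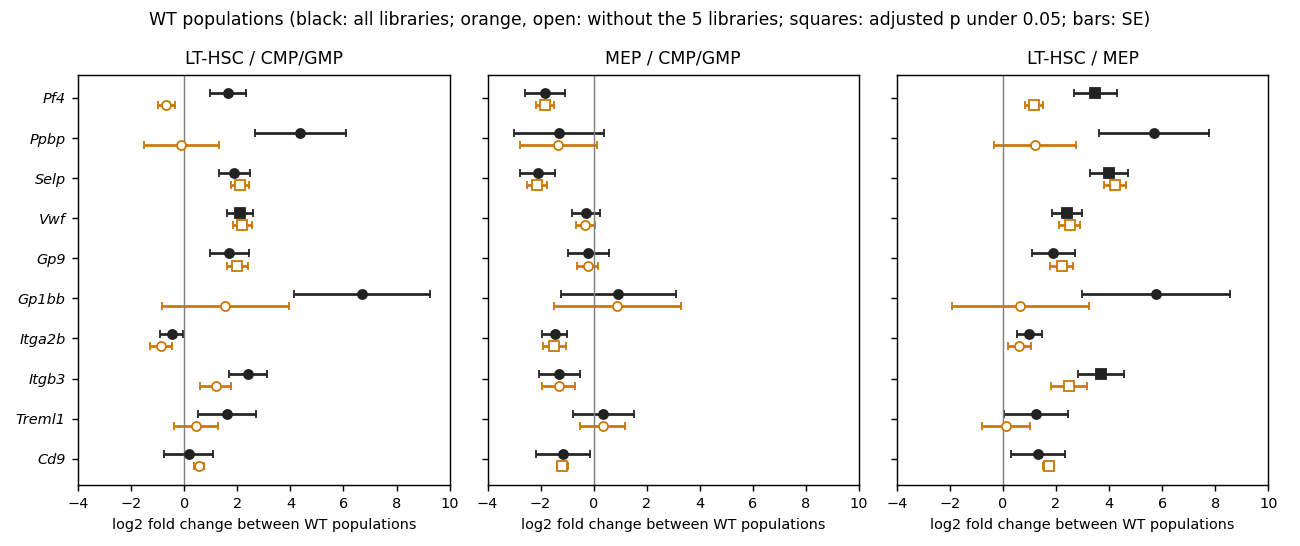
Log2 fold changes of the 10 genes between WT populations (x axis) with their standard errors, for all libraries (black) and without the 5 libraries with few odd counts (orange, open). Squares mark an adjusted p under 0.05. Selp and Vwf hardly moved between the fits in the comparisons of LT-HSC, whereas Pf4 went from 1.66 to -0.68 against CMP/GMP.

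Itga2b, which marks early progenitors as well, followed another order. It stood at 306, 132, 182 and 93.1 CPM in LT-HSC WT, at 305, 225, 107 and 359 CPM in CMP/GMP WT and at 142, 74.4 and 48.9 CPM in MEP WT, so that all 3 populations overlapped. In c-kit+ cells its 9 libraries lay between 66.7 and 79.7 CPM, the narrowest relative range of the 10. Gp9 stood at 23.8, 35.5, 133 and 110.4 CPM in LT-HSC WT, at 36.1, 18.4, 21.6 and 17.0 CPM in CMP/GMP WT and at 29.7, 18.9 and 11.3 CPM in MEP WT, again with overlap between all 3. Cd9 stood at 13, 171, 168 and 172 CPM in LT-HSC WT, where only replicate 1 was low, at 149.5, 121, 91.5 and 106 CPM in CMP/GMP WT and at 58.8, 50.1 and 45.6 CPM in MEP WT.

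The scarcer members were detected unevenly. Treml1 stood at 64.8, 5.50, 8.67 and 18.1 CPM in LT-HSC WT, at 7.80, 5.20, 13 and 5.75 CPM in CMP/GMP WT and at 8.52, 16.9 and 4.72 CPM in MEP WT. Ppbp stood at 176, 2.75, 0 and 3.30 CPM in LT-HSC WT, and at 0.191 to 4.62 CPM in CMP/GMP and MEP WT. Gp1bb stood at 76.1, 0, 1.13 and 0.494 CPM in LT-HSC WT and at 0 to 0.812 CPM in the other WT sorted libraries. LT-HSC WT 1 was therefore the highest of the 4 LT-HSC WT libraries for 6 of the 10 genes (Pf4, Ppbp, Gp1bb, Itga2b, Itgb3 and Treml1) and the lowest for the other 4. Of 320 values of the 10 genes, 10 were 0 (7 of Gp1bb, 2 of Ppbp and 1 of Treml1), which allows up to 0.0629 to 0.104 CPM, and up to 0.872 CPM in MEP Dnmt3a KO 2, before TMM scaling and for counting error only.

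Other genes of the pathway were read from 4 lists chosen by function. Among 13 transcription factors of megakaryocytes, 5 were higher and 2 lower in LT-HSC than in MEP WT cells, where 3.41% of all genes were higher and 2.58% lower. Gata1, the factor shared with the red cell lineage, was lower, at 35.9 ± 24.6 (SD, n = 4) against 407 ± 54.9 CPM (n = 3). Meis1, a homeobox factor of stem and megakaryocyte cells, was higher, at 391 ± 142 against 55.5 ± 12.8 CPM. Of 18 tested platelet surface receptors 3 were higher, among them the ATP-gated channel gene P2rx1 at 63.0 ± 24.9 against 7.70 ± 4.60 CPM. Of 15 tested granule and secreted proteins 4 were higher, led by Mmrn1 (multimerin, a carrier of factor V) at 191 ± 77.0 against 1.94 ± 1.82 CPM, and of 27 genes of signalling and cytoskeleton 10 were higher, led by the cation channel gene Trpc6 at 78.7 ± 53.6 against 1.25 ± 1.15 CPM. None of the last 3 lists had a gene called lower. Without LT-HSC WT 1 the genes called higher were 4 of the factors, with 1 lower, 3 of the receptors, 4 of the granule list and 8 of the signalling list, against 3.42% of all genes. In the fit without the 5 libraries they were 9 (2 lower), 6, 5 (1 lower) and 14, against 7.90%.

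Against CMP/GMP, Gata1 was the only factor called, lower in LT-HSC at 35.9 ± 24.6 against 125 ± 39.2 CPM, where 1.70% of all genes were lower. Without LT-HSC WT 1 Meis1 was called higher as well. Slamf1 (60.7 ± 19.7 against 1.87 ± 1.15 CPM), Mmrn1 (191 ± 77.0 against 15.9 ± 8.10 CPM), Angpt1 (550.3 ± 76.2 against 155 ± 39.1 CPM) and Trpc6 (78.7 ± 53.6 against 6.55 ± 3.82 CPM) were higher. Slamf1 is known in stem cells as well as platelets. Between MEP and CMP/GMP, Gfi1b, a factor of red cells and megakaryocytes, was higher in MEP (584 ± 261 against 108 ± 23.9 CPM), and Etv6, Mef2c, the cyclooxygenase gene Ptgs1 and Plek, a platelet substrate of protein kinase C, were lower. The log2 fold changes of Ptgs1 and Plek were -2.47 ± 0.60 and -2.32 ± 0.60.

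Loss of Dnmt3a was next compared with WT within each sorted population. In CMP/GMP, Pf4 stood at 502, 293, 618 and 542 CPM in KO, against 248, 221, 169.9 and 134 CPM in WT, so that each KO library was above each WT library. Treml1 stood at 52.3, 30.7, 30.5 and 13.4 CPM in KO, against 7.80, 5.20, 13 and 5.75 CPM in WT, with KO 4 just above WT 3. Gp9 stood at 52.2, 43.4, 51.5 and 40.3 CPM in KO, against 36.1, 18.4, 21.6 and 17.0 CPM in WT. Here too the groups were apart, as they were for Cd9, with 187, 176, 195 and 157 CPM in KO, against 149.5, 121, 91.5 and 106 CPM in WT. Groups with each KO library above each WT library were found for 2.76% of the 13205 genes tested. No member had the KO group below WT.

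The test across all genes called none of the 10 in CMP/GMP and no other gene either (0%, edgeR). At an unadjusted p under 0.05 it found 6 of the 10 (60%), against 1196 genes or 9.06%. The log2 fold change was 1.35 ± 0.25 (SE) for Pf4 (adjusted p = 0.285), 2.01 ± 0.44 for Treml1 (0.298), 1.02 ± 0.28 for Gp9 (0.352) and 0.62 ± 0.18 for Cd9 (0.364). Selp had 0.98 ± 0.29 and Vwf 0.76 ± 0.35. The median of the 10 was 1.0 beside 0.009 over all genes, and Itga2b, with -0.23 ± 0.35, was the only gene with a negative estimate. DESeq2 called 3 of the 10 (Pf4 with an adjusted p of 8e-05, Treml1 with 0.00307 and Gp9 with 0.0499) and 0.742% of all genes as higher. Limma-voom with quality weights called Cd9 and Selp as well, 5 of 10 against 2.71% of genes. With CMP/GMP WT 2 and 4 summed to 1 library the fold change of Pf4 was 1.30 ± 0.26 and that of Treml1 1.87 ± 0.49.

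**Figure D3:**
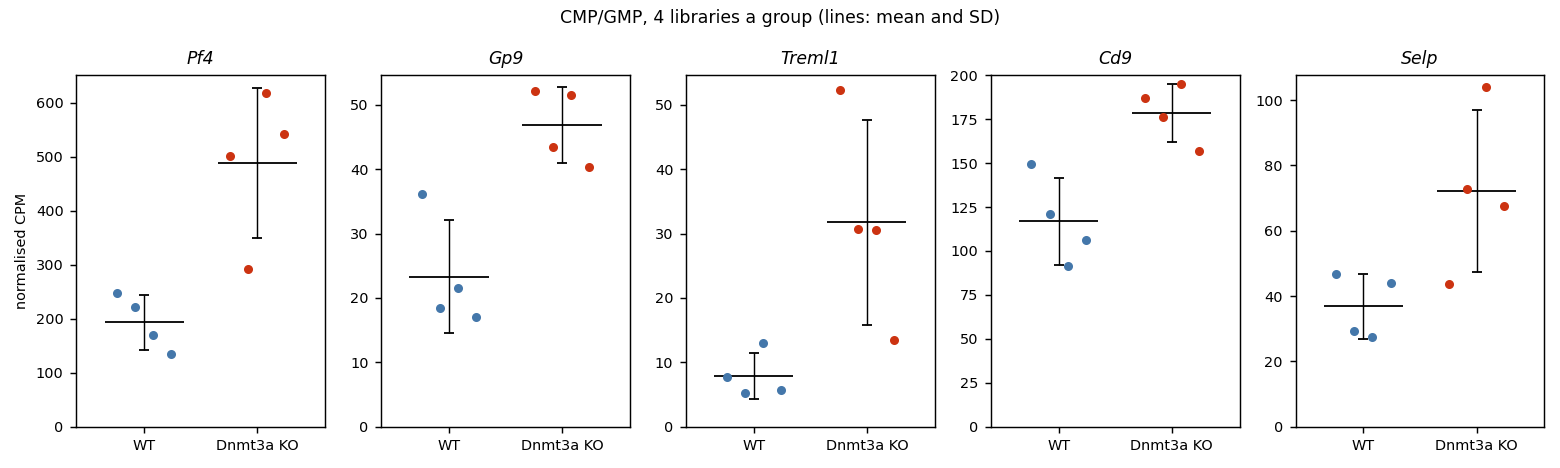
Normalised CPM (y axis, from 0) of Pf4, Gp9, Treml1, Cd9 and Selp in the 4 WT and 4 Dnmt3a KO libraries of CMP/GMP, with mean and SD. The 2 groups did not overlap for Pf4, Gp9, Treml1 and Cd9, while Selp in KO 1 (43.8 CPM) lay among the WT libraries (27.5 to 46.7 CPM).

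The remaining members overlapped between KO and WT in CMP/GMP. Selp stood at 43.8, 72.9, 104 and 67.7 CPM in KO, and only KO 1 lay in the WT range. Vwf stood at 18.8, 24.5, 40.7 and 19.5 CPM in KO against 10.8 to 21.5 CPM in WT. Itgb3 (13.8 to 38.0 CPM in KO, 1.64 to 30.9 CPM in WT), Itga2b (120.4 to 292 against 107 to 359 CPM) and Ppbp (0.0546 to 12.4 against 0.918 to 4.62 CPM) had wide ranges, and Gp1bb was at or below 1.87 CPM throughout. The integrin genes therefore did not show the separation of Pf4 and Gp9. Neither did Ppbp, the other granule chemokine, or Gp1bb, the other subunit of the receptor. The difference between members was not tested.

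Marker genes of other cells were read beside these values. The granulocytic sum was 9147 to 22876 CPM in CMP/GMP KO and 6403 to 32507 CPM in WT, the erythroid sum 1550.4 to 1967 against 1353 to 2669.7 CPM, and the stem cell sum 529.7 to 849 against 452 to 619 CPM. All 3 overlapped, though the 9 tested granulocytic genes all had positive estimates, with a median of 0.413. The sum of 10 stromal genes was 5.20 to 26.5 CPM in KO, against 33.7 to 143 CPM in WT, with no overlap and lower in the KO libraries. The sum of 12 macrophage genes was 61.9 to 86.3 against 37.8 to 84.5 CPM. The part of these cells in the values of the 10 genes was not tested. The pathway lists had no called gene in this comparison: 10 of 13 transcription factors, 13 of 17 surface receptors, 8 of 14 granule genes and 15 of 25 signalling genes had positive estimates, with medians of 0.405, 0.29, 0.23 and 0.13 beside 0.009 for all genes.

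The promoters of the 4 genes whose libraries did not overlap are given here because GATA and ETS factors are the known regulators of platelet genes, and because Dnmt3a methylates cytosine in CG pairs. Each window runs from 250 bases before to 50 bases after the start of the gene in RefSeq (GRCm38.p6), read 5′ to 3′ on the strand of the gene. Capitals mark matches to GATAA or GGAAG on either strand (TTATC and CTTCC on the other), which did not overlap each other. Pf4 is at chr5:90772185-90772484 (plus strand), Gp9 at chr6:87777820-87778119 (plus), Treml1 at chr17:48359666-48359965 (plus) and Cd9 at chr6:125494711-125495010 (minus).
Pf4: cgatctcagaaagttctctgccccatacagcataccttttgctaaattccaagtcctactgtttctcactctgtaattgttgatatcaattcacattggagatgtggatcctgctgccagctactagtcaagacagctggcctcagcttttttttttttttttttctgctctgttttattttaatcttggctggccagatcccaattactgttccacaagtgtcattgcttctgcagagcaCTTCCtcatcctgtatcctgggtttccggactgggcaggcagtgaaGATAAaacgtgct
Gp9: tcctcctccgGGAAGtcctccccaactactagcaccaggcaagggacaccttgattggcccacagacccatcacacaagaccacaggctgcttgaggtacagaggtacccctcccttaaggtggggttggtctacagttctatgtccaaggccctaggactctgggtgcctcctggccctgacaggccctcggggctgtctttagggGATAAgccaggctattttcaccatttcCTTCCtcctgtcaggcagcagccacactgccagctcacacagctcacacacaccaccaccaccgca
Treml1: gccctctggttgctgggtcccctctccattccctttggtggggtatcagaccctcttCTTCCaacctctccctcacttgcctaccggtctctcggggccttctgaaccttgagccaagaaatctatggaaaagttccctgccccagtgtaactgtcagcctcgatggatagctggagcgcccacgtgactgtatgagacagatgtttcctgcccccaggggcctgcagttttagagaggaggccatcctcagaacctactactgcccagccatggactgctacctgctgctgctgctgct
Cd9: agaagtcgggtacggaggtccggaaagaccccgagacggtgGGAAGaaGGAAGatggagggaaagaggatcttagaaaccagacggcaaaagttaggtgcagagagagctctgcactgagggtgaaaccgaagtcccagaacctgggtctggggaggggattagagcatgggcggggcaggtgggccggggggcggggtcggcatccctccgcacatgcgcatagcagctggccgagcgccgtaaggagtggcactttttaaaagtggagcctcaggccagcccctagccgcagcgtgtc

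Promoter windows were found for 8 of the 10 genes, Itgb3 and Vwf being the others. The GATAA motif was in 2 of the 8 windows, that of Gp9, at -43 from the start, and that of Pf4, at 37, against 25.4% of 32851 windows of all genes. The GGAAG motif was in all 8, against 71.4% of all windows. Of the 4 windows shown, Pf4 and Gp9 hold 3 CG pairs each, Treml1 5 and Cd9 18, where the median window holds 7 and the quartiles are 3 and 20. A match describes the letters and is not a binding site, and methylation was not analysed here.

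In MEP, Pf4 stood at 421, 275, 200 and 225 CPM in Dnmt3a KO and at 46.2, 73.3 and 42.0 CPM in WT. Each KO library was above each WT library, and the log2 fold change was 2.36 ± 0.40 (edgeR, adjusted p = 0.315). Neither Pf4 nor any other gene was called (0% of 12323 genes), with 1 of the 10 and 1607 genes (13%) at an unadjusted p under 0.05. Itgb3 was the other member whose groups were apart, with 11.9, 50.5, 19.3 and 19.4 CPM in KO against 6.39, 10.9 and 6.37 CPM in WT. Its estimate went from 1.67 ± 0.76 to 0.58 ± 0.81 without the 5 libraries. Groups with KO above WT were found for 4.42% of genes. DESeq2 called Pf4 (adjusted p = 1.66e-05) and no other member, against 3.70% of genes called higher. Limma-voom with quality weights called 8 of the 10, 6 higher and 2 lower, but it called 63.3% of all genes.

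The MEP comparison depends on which KO libraries enter, since 3 of the 4 KO libraries and no WT library have few odd counts. Cd9 stood at 181 CPM in KO 1 and at 12.8, 1.24 and 1.35 CPM in KO 2 to 4, against 45.6 to 58.8 CPM in WT. Gp9 stood at 57.3 CPM in KO 1 and at 4.26, 7.55 and 6.93 CPM in the others, against 11.3 to 29.7 CPM in WT. KO 1 was thus above WT and the other 3 below WT for both genes. In the library labelled KO 2, Dnmt3a itself stood at 43.8 CPM, within the WT range of 29.2 to 50.1 CPM. With KO 1 as the only KO library, whose spread is then taken from the WT libraries, Pf4 had a log2 fold change of 2.96 ± 0.34 and was called (edgeR, adjusted p = 0.00946), against 0.0735% of 14960 genes called higher. Cd9 then had 1.80 ± 0.33 and all 10 estimates were positive, beside a median of -0.149 over all genes. In that fit all 10 tested macrophage genes and 10 of 11 granulocytic genes were positive as well, with medians of 6.23 and 2.23. Of 18 erythroid genes 1 was positive, with a median of -0.846. KO 1 had a macrophage sum of 205 CPM and a granulocytic sum of 1404 CPM, against 55.2 to 111 and 117 to 565 CPM in WT. The part of these cells was not tested. Without KO 1 the change of Pf4 was called as well (adjusted p = 0.00545), and Cd9 was called lower, at -3.42 (adjusted p = 0.0427), but that fit called 10.9% of 11880 genes higher and 13.4% lower. With KO 3 and 4 summed to 1 library the fold change of Pf4 was 2.50 ± 0.45 (adjusted p = 0.609).

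Treml1 stood at 40.6, 0, 34.9 and 54.8 CPM in MEP KO against 8.52, 16.9 and 4.72 CPM in WT, so that all KO libraries but KO 2, the shallowest library, were above WT. Vwf (12.8 to 29.7 against 10.2 to 14.2 CPM), Ppbp (0 to 9.75 against 0.191 to 1.44 CPM), Selp (0.304 to 18.5 against 5.51 to 13 CPM), Itga2b (72.1 to 113 against 48.9 to 142 CPM) and Gp1bb (0 to 7.46 against 0 to 0.812 CPM) overlapped. In the same libraries the erythroid sum was 9072 to 13420.3 CPM in KO, against 15131 to 19889 CPM in WT, without overlap. The granulocytic sum was 119 to 3025 CPM against 117 to 565 CPM. Of 9 tested granulocytic genes 8 had positive estimates, with a median of 1.48. Of the 10 members 6 had positive estimates, with a median of 1.27. The part of erythroid and granulocytic cells in the values of the 10 genes was not tested. Of the pathway lists, no gene was called, and the granule list had 10 of 10 tested genes with positive estimates at a median of 1.77, beside -0.032 for all genes. With KO 1 as the only KO library these were 8 of 13 and 0.612. The summed level of the granule list was 1232, 1297, 696 and 687 CPM in KO against 648 to 979 CPM in WT, so that KO 3 and 4 lay in the WT range. The basophil, mast cell and eosinophil sum was 48.6 to 410.2 CPM in KO, highest in KO 1, against 25 to 44.4 CPM in WT, without overlap. Of 6 tested genes of that list 5 had positive estimates, with a median of 3.05. All 4 tested macrophage genes had positive estimates, with a median of 2.08. The part of these cells was not tested either.

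In LT-HSC no member separated by genotype, where 0.844% of genes had each KO library above each WT library. Pf4 stood at 91.0, 74.3, 77.5 and 227 CPM in KO against 2069, 136, 108 and 116 CPM in WT. Its log2 fold change of -2.38 ± 0.93 (edgeR, adjusted p = 1) became 0.13 ± 0.38 without the 5 libraries. Ppbp, at 17.7, 2.89, 13.6 and 1.49 CPM in KO, went from -2.36 ± 1.73 to 2.44 ± 1.78 in the same way, and Gp1bb from -2.49 to 0.42. None of the 10 and no other gene was called (0% of 12800, with Pf4 and 151 genes in all at an unadjusted p under 0.05). DESeq2 called 7 genes and no member, and limma-voom none.

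Cd9 in LT-HSC separated by genotype only once the libraries with few odd counts were left out. It stood at 314, 55.6, 244 and 302 CPM in KO, against 13, 171, 168 and 172 CPM in WT, and the lowest library of each group was the one with few odd counts. Without those the 3 KO libraries were above the 3 WT libraries, as were 4.83% of genes, and the log2 fold change was 0.75 ± 0.19 (edgeR, unadjusted p = 0.003, adjusted p = 1). The lowest of these 3, with 244 CPM, was the library labelled KO 3, whose Dnmt3a level of 104 CPM was within the WT range. Vwf stood at 81.3, 13.4, 59.7 and 127 CPM in KO and Selp at 151, 65.1, 149 and 145 CPM, both with KO 2 lowest and the rest overlapping WT. The other 4 members overlapped too: Itga2b had 112 to 363 CPM in KO, Itgb3 63.2 to 128, Gp9 8.39 to 115 and Treml1 0.302 to 53.9 CPM. The median estimate of the 10 went from -0.107 to 0.583 without the 5 libraries, beside 0.004 for all genes in both fits. In the fit of all LT-HSC libraries the 4 pathway lists had no called gene. Positive estimates were found for 11 of 13 transcription factors, 8 of 15 surface receptors, 2 of 12 granule genes and 13 of 24 signalling genes. The medians were 0.324, 0.019, -0.375 and 0.011.

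**Figure D4:**
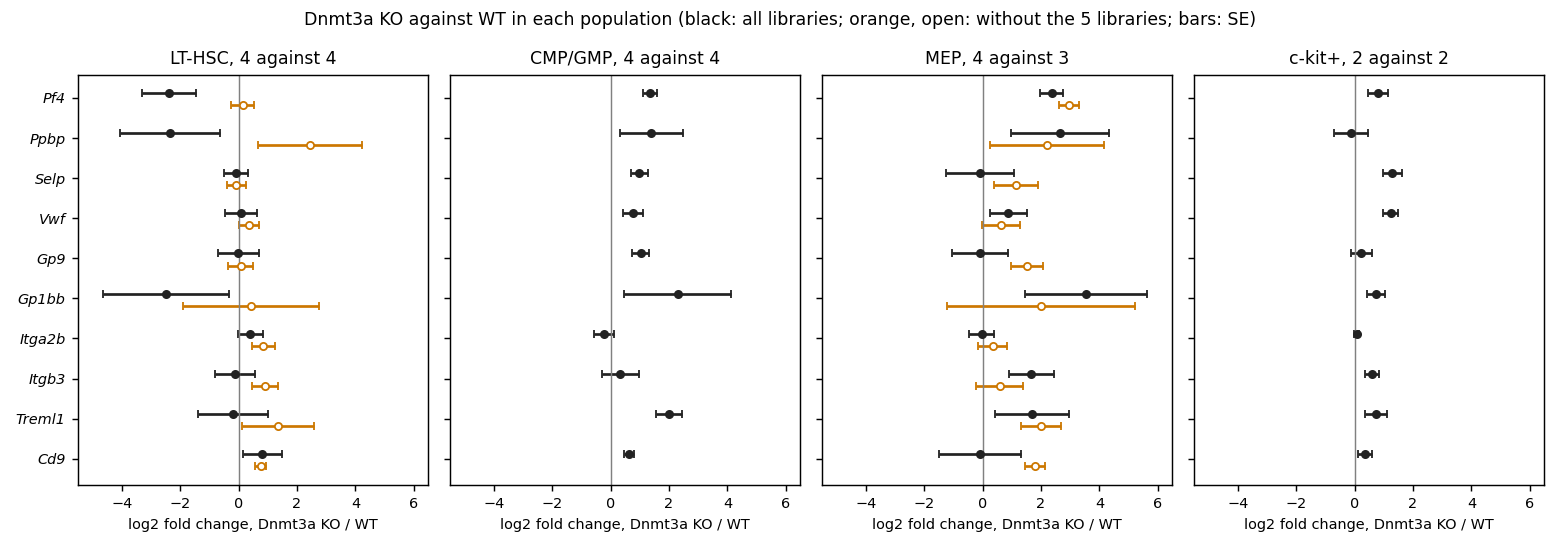
Log2 fold changes of Dnmt3a KO against WT (x axis) with standard errors in LT-HSC, CMP/GMP, MEP and c-kit+ cells, from all libraries (black) and without the 5 libraries with few odd counts (orange, open). None passed an adjusted p of 0.05 in the fits of all libraries. Of the 10 estimates 9 were above 0 in CMP/GMP and in c-kit+ cells, against 3 in LT-HSC and 6 in MEP (7 with RLE size factors). Without the 5 libraries they were 9 in LT-HSC and 10 in MEP, where KO 1 was then the only KO library. Without LT-HSC WT 1 alone they were 7 in LT-HSC.

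Whether the effect of Dnmt3a loss differed between LT-HSC, CMP/GMP and MEP was tested with 1 F-test per gene in edgeR. It called 3 of 16136 genes (0.0186%) and none of the 10, with Pf4 alone among them at an unadjusted p under 0.05, as were 1929 genes. For Pf4 the F-test over both differences gave an unadjusted p of 0.000192 (adjusted p = 0.282). Its log2 fold change in LT-HSC minus that in CMP/GMP was -3.73 ± 0.95 (edgeR, unadjusted p = 0.000655, adjusted p = 0.506). That in MEP minus CMP/GMP was 1.04 ± 0.97 (edgeR, unadjusted p = 0.294, adjusted p = 0.678). The first of these differences was -1.21 ± 0.46 without the 5 libraries. DESeq2 called Pf4 in this test, against 0.806% of genes. Without MEP Dnmt3a KO 1, edgeR called Pf4 and Cd9, in a fit that called 5.25% of all genes.

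In c-kit+ cells, the fraction enriched for progenitors, the 4 genotypes ask whether Sting matters to the effect of Dnmt3a loss. Vwf stood at 32.2 and 23.6 CPM in WT, 59.2 and 70.3 CPM in Dnmt3a KO, 25.4 and 27.0 CPM in Sting KO, with 61.5, 33.1 and 37.9 CPM for the DKO. Both Dnmt3a KO libraries were near or above the highest value of the other groups. Selp stood at 5.44 and 8.88 CPM in WT, 14.4 and 20.1 CPM in Dnmt3a KO, 13 and 6.77 CPM in Sting KO, with 14.7, 12.3 and 10.7 CPM for the DKO. Pf4 stood at 18.9 and 13.2 CPM in WT, 25.7 and 29.4 CPM in Dnmt3a KO, 13.1 and 10.7 CPM in Sting KO, with 31.5, 15.8 and 15 CPM for the DKO. Of the DKO libraries, replicate 1 was at the level of the Dnmt3a KO for Pf4 and Vwf and the other 2 were closer to WT.

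Dnmt3a KO against WT gave log2 fold changes of 1.23 ± 0.27 for Vwf (edgeR, adjusted p = 0.087), 1.29 ± 0.33 for Selp (0.126) and 0.80 ± 0.33 for Pf4 (0.281). None of the 10 was called, against 0.568% of 16026 genes. At an unadjusted p under 0.05 there were 5 of the 10 and 2611 genes (16.3%). The median of the 10 was 0.648 beside -0.001 for all genes. The 4 pathway lists had no called gene. Positive estimates were found for 12 of 13 transcription factors, 12 of 19 surface receptors, 4 of 16 granule genes and 22 of 27 signalling genes. The medians were 0.246, 0.104, -0.131 and 0.149. Each Dnmt3a KO library was above each WT library for 7 of the 10, a pattern shown by 25.8% of genes with these groups of 2. DESeq2 called Vwf (adjusted p = 0.000101) and Selp (0.00326) and 2.01% of genes as higher. Limma-voom called the same 2 genes, against 2.63% of genes. When either DKO 1 or DKO 2 was left out of the fit, edgeR called Vwf (adjusted p down to 0.0177), against 0.440% and 0.910% of genes called higher.

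These c-kit+ groups differ in sex as well. Both Dnmt3a KO libraries and DKO 1 expressed Xist, which coats and silences an X chromosome in female cells, while Y-chromosome transcripts were found in the other 6 libraries, among them all WT and Sting KO. With a term for sex the log2 fold change was 0.45 ± 0.26 for Vwf, 0.94 ± 0.53 for Selp and -0.23 ± 0.30 for Pf4, the median of the 10 was 0.187, and no gene was called. Genotype and sex cannot be told apart within the comparison of Dnmt3a KO with WT, and the term rests on DKO 1 against the other DKO libraries. The macrophage sum was 2058 and 2175 CPM in WT and 523 to 881 CPM in all other c-kit+ libraries, and the sum of 11 basophil, mast cell and eosinophil genes was 4087 and 4581 CPM in WT and 1433 to 3268 CPM in the others. The sum of the 15 endothelial genes was 186 and 182 CPM in Dnmt3a KO against 207 and 198 CPM in WT, with 4 of 13 tested genes at positive estimates and a median of -0.183. None of the 15 was at 0 in either group. The stem cell sum was 238 and 254 CPM in Dnmt3a KO against 210 and 207 CPM in WT. Of 13 stem cell genes 10 had positive estimates, with a median of 0.257. The granulocytic sum was 30129 and 30665 CPM in Dnmt3a KO against 23482 and 20119 CPM in WT, with 10 of 13 tested genes at positive estimates and a median of 0.408. The part of these cells in the values of the 10 genes was not tested.

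**Figure D5:**
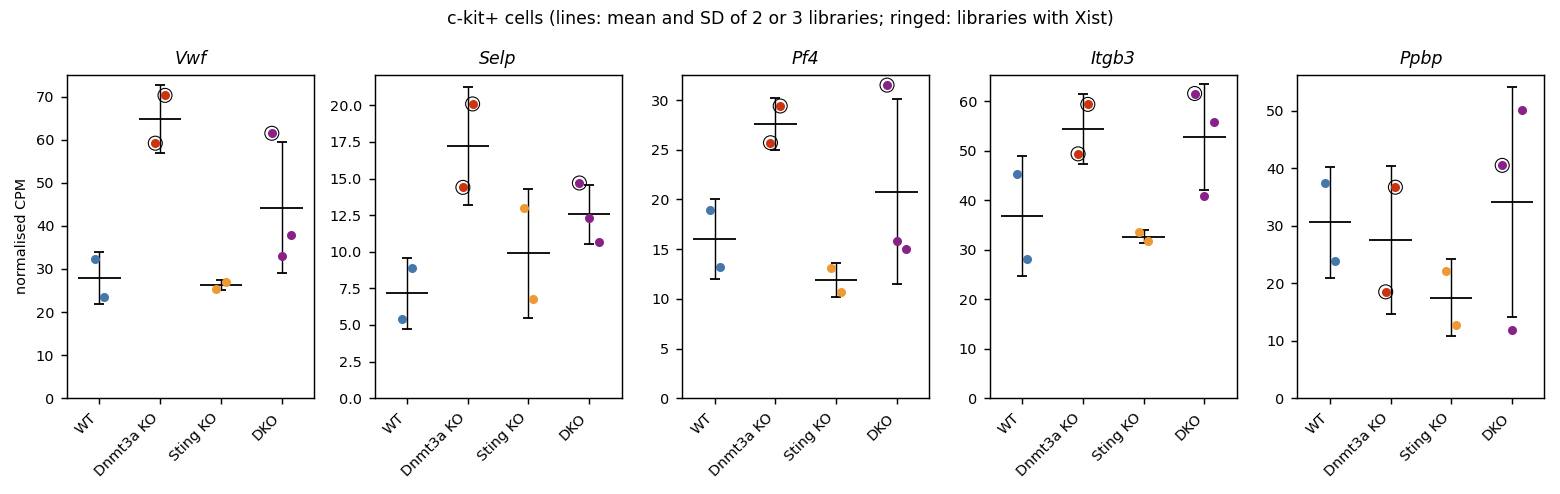
Normalised CPM (y axis, from 0) of Vwf, Selp, Pf4, Itgb3 and Ppbp in the 9 c-kit+ libraries by genotype, with mean and SD, libraries with Xist being ringed. The ringed DKO library had 61.5 CPM of Vwf and 31.5 CPM of Pf4, above the other 2 DKO libraries (33.1 and 37.9 CPM, and 15.8 and 15 CPM).

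The further c-kit+ comparisons share libraries with each other and their values are given side by side. DKO against Sting KO, the effect of Dnmt3a loss without Sting, had positive estimates for all 10 genes with a median of 0.717, beside 0.016 for all genes. Vwf had 0.77 ± 0.25, Itgb3 0.71 ± 0.22 and Pf4 0.82 ± 0.31. No member and no other gene was called (0%, edgeR), 4 of the 10 and 1854 genes had an unadjusted p under 0.05, and 4 members had each DKO library above each Sting KO library, against 11.0% of genes. DESeq2 called 135 genes and limma-voom none, with no member in either. With a term for sex the median was 0.427.

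Sting KO against WT called none of the 10 (0.774% of genes called), with a median of -0.165 and no member at an unadjusted p under 0.05, against 1845 genes. DKO against Dnmt3a KO called none either (0.156% of genes), with a median of -0.083, and Vwf had -0.56 ± 0.24 and Pf4 -0.42 ± 0.30. DKO against WT called none (1.26% of genes), with a median of 0.459, and Vwf had 0.67 ± 0.25 and Selp 0.82 ± 0.31. The interaction of both losses called none of the 10 (0.150% of genes), and its estimates ran from -0.92 ± 0.45 for Selp to 1.11 ± 0.78 for Ppbp. At an unadjusted p under 0.05, DKO against Dnmt3a KO had 1 member and 1268 genes, DKO against WT 5 and 2676, and the interaction no member and 1211 genes. DESeq2 and limma-voom called no member in these 4 comparisons. Itgb3 stood at 45.4 and 28.2 CPM in WT, 49.4 and 59.4 CPM in Dnmt3a KO, 33.6 and 31.7 CPM in Sting KO, with 61.6, 40.9 and 55.9 CPM for the DKO. Ppbp, at 11.8 to 50.2 CPM, varied as much within groups as between them. Cd9 was at 46.2 to 94.8 CPM, Gp9 at 2.19 to 7.07 CPM, Treml1 at 2.07 to 5.06 CPM and Gp1bb at 1.21 to 2.47 CPM.

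Most of the 45 pairs of the 10 genes had positive correlations in each set of libraries, with a higher median in c-kit+ cells. Over all 32 libraries, which differ in population, depth and genotype, the median Pearson correlation of log2 CPM over the 45 pairs was 0.26 and the highest was 0.75 (Spearman 0.77), between Gp9 and Selp. After the mean of each group was taken off, the median over 23 sorted libraries was 0.18, with 0.72 for Gp9 and Cd9. Without the 5 libraries with few odd counts that pair had 0.77, the same as Cd9 and Selp, over 18 libraries, and Itga2b and Itgb3, the 2 chains of 1 receptor, had 0.58. Over the 9 c-kit+ libraries the median was 0.62, and 0.39 within groups, with 0.92 for Pf4 and Vwf. Of the 45 pairs 43 were positive there and 30 were at 0.5 or more, against 30 and 10 over all 32 libraries. Within groups they were 36 and 19 in c-kit+ cells and 30 and 8 in the 23 sorted libraries. In the 18 sorted libraries without the 5 they were 35 and 6. The c-kit+ values before the group means were taken off also carry the differences of genotype and sex. These are descriptions over libraries that share cells of the same kind.

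Outside the 10, the genes of the most similar pattern over the 32 libraries were found among 10069 genes whose mean was 5 CPM or more. Gp9 was closest to Nfe2 (Pearson 0.95), which encodes a transcription factor of megakaryocytes and red cells, then to Rab37 (0.94) and Krt18 (0.92). Cd9 was closest to Slx1b (0.95), Matk (0.94) and Zfp386 (0.93), and Selp to Eya2 (0.91), Pglyrp2 (0.90) and Anxa5 (0.90). Pf4 was closest to Lamtor4 (0.86), Cstb (0.86) and Krtcap2 (0.85), and Itga2b to Ndrg1 (0.85), Dapp1 (0.84) and Muc13 (0.84). Itgb3 was closest to Nrarp (0.83), Treml1 to Zswim1 (0.84), Vwf to Slc37a1 (0.81), and Gp1bb and Ppbp reached 0.76 with Zxdc and Nuf2. These values carry the differences between populations and the library depth, which all genes share.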

How the data were processed

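Per the labels' protocols, polyA RNA of bone marrow cells was amplified by a modified SMART-Seq2 method. The deposited values are raw read counts per gene symbol. Per the submitters' processing notes, the authors used Trim Galore 0.6.7, HISAT2, featureCounts 2.0.1, DESeq2 1.34.0 and the mm10 build. No source used here gives the annotation, the strand setting or the treatment of multi-mapping reads. Of 40 columns, 32 matched 1 library each, and 8 were not used because their names did not match 1 sample. Counts were tested with edgeR 4.0.16 (quasi-likelihood test, TMM, filterByExpr with a minimum count of 10 and a total of 15, Benjamini-Hochberg adjustment, call at an adjusted p under 0.05), in R 4.3.3. Each sorted population was fitted alone for Dnmt3a, the 9 c-kit+ libraries together, and the 23 sorted libraries together for WT populations and the F-test. The procedure was tested on simulated data. Alternatives were DESeq2 1.42.0, limma 3.58.1 (voom with quality weights), RLE size factors, no filter, a replicate block, a term for sex, other sets of libraries and each library left out. All 10 members are named. Of each pathway list up to 3 called genes with the largest fold change and a mean of at least 5 CPM in 1 group are named, except some that are not reported here, and for likeness the 3 genes with the highest Pearson correlation of log2 CPM (prior count 2). The members and lists were chosen with earlier results of these data known. The fits without the 5 libraries with few odd counts, with library pairs summed, with a term for sex in sorted cells, and with the block of genotype and number or the crossed block were chosen after seeing the data. Floors for a value of 0 are 3 counts and take each count as an independent read.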

Additional observations from a re-analysis of the deposited data

Results flagged for a closer look

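In 50 groups of 4 libraries (10 genes in 5 groups), 10 held a library that stood apart from the others by Dixon's 95% criterion. Chance gives about 1 in 20 for independent normal values. Here the genes share libraries and the levels need not be normal, so the number due to chance is not known. LT-HSC WT 1 was far above the other WT libraries for Pf4 (2069 CPM), Ppbp (176 CPM) and Gp1bb (76.1 CPM) and far below them for Cd9 (13 CPM). LT-HSC Dnmt3a KO 2 was apart for Gp1bb (11.5 CPM, above) and Selp (65.1 CPM, below). These 2 libraries are among the 5 with few odd counts. MEP Dnmt3a KO 1, the KO library of that population that is not among those 5, was above the other 3 for Gp9 (57.3 CPM) and Cd9 (181 CPM). Pf4 in LT-HSC Dnmt3a KO 4 (227 CPM) and Gp1bb in CMP/GMP WT 1 (0.74 CPM) were above the other libraries of their groups. The other CMP/GMP WT libraries had no reads of Gp1bb, so any level in a single library would have stood apart there.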

How the results depend on the processing

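For the 10 genes in 13 comparisons, 2670 alternative values were computed: 2454 kept direction and call, 13 lost a call, 78 gained one, 125 changed sign without a call in either fit, and none turned a called value. Where a count of called members moved, the cause was not tested. With DESeq2 the members called for Dnmt3a loss were 3 in CMP/GMP (1.21% of all genes), 1 in MEP (4.55%) and 1 in the F-test (0.806%). They were 5 between LT-HSC and CMP/GMP (11.2%), 6 between LT-HSC and MEP (2625 genes called) and 2 between MEP and CMP/GMP (1142 genes called). In c-kit+ Dnmt3a KO against WT they were 2 (4.04%). Voom with quality weights gave 5 in CMP/GMP (3.6% of all genes), 8 in MEP (63.3%) and 2 in c-kit+ Dnmt3a KO against WT (5.77%). With no filter on low counts the members called, with the share of all genes called, were 1 in the F-test (0.0361%), 3 between LT-HSC and CMP/GMP (2.70%), 1 in DKO against Dnmt3a KO (1.76%), 5 in DKO against Sting KO (1.73%), 4 in DKO against WT (5.76%), 4 in Dnmt3a KO against WT (5.17%) and 1 in Sting KO against WT (3.12%). Without the 5 libraries with few odd counts, the members called were 3 between LT-HSC and CMP/GMP (2094 genes called). They were 6 between LT-HSC and MEP (2770 genes) and 4 between MEP and CMP/GMP (1201 genes). With only WT libraries, 2 members were called between LT-HSC and CMP/GMP (8.74% of all genes) and 1 between MEP and CMP/GMP (3.47%), with a term for sex 2 between LT-HSC and CMP/GMP (3.68%), with library pairs summed 0 there (1.35%), and with only the 2 groups compared 3 in c-kit+ Dnmt3a KO against WT (8.35%).

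Leaving out 1 library at a time, no member was called in CMP/GMP or in LT-HSC. MEP and the F-test had 0 to 2 members called, with 2 only without MEP Dnmt3a KO 1 (2882 and 844 genes called). Between LT-HSC and CMP/GMP the range was 0 to 3, with 3 only without MEP Dnmt3a KO 1 (944 genes called). Without CMP/GMP WT 2 it was 0 (198 genes). Between LT-HSC and MEP the range was 1 to 4, with 1 only without MEP WT 4 (365 genes). Between MEP and CMP/GMP it was 0 to 1, with 1 only without LT-HSC WT 1 or MEP Dnmt3a KO 2 (353 genes for the latter). Dnmt3a KO compared with WT in c-kit+ cells gave 0 to 1, with 1 only without DKO 1 (125 genes) or DKO 2 (289 genes). DKO compared with WT gave 0 to 1, with 1 only without DKO 3 (946 genes). Selp between LT-HSC and MEP kept its call in all 31 alternatives, with log2 fold changes of 3.59 to 4.45, Vwf in 29, Itgb3 in 29 and Pf4 in 27, and Vwf between LT-HSC and CMP/GMP in 26. Over all alternatives the genes called in the whole table ranged from 0 to 475 in CMP/GMP, 0 to 7800 in MEP (2882 without MEP Dnmt3a KO 1), 0 to 7 in LT-HSC, 0 to 844 in the F-test (3 as reported), 198 to 2094 between LT-HSC and CMP/GMP (574), 365 to 2770 between LT-HSC and MEP (967), 54 to 1201 between MEP and CMP/GMP (228), 0 to 1260 in c-kit+ Dnmt3a KO against WT (91), 17 to 735 in Sting KO against WT (124), 1 to 415 in DKO against Dnmt3a KO (25), 0 to 408 in DKO against Sting KO, 10 to 1359 in DKO against WT (202) and 2 to 446 for the interaction (24).

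The labels tie the replicate numbers to no animal or batch. Correlations of same-numbered libraries ran from -0.242 to 0.124 in LT-HSC, -0.173 to 0.18 in CMP/GMP, -0.077 to 0.108 in MEP and -0.172 to 0.13 in c-kit+ cells. Across the sorted populations they ran from -0.103 to 0.373 in Dnmt3a KO (-0.431 to 0.182 for other numbers) and from -0.069 to 0.186 in WT (-0.149 to 0.103). The pairs were thus not all above 0.1, the bound set for pairing. In the sorted populations the libraries numbered 3 and 4 expressed Xist and those numbered 1 and 2 Y-chromosome genes, except CMP/GMP WT 4. With a replicate block, 0 genes were called in CMP/GMP, 181 in c-kit+ Dnmt3a KO against WT with 0 members, 832 in DKO against WT with 1 member, 187 in Sting KO against WT, 11 in DKO against Dnmt3a KO and, with genotype and number as the block, 0 in the F-test and 3 members between LT-HSC and MEP, where Pf4 was lost. With the crossed replicate block 229 genes and 1 member were called in c-kit+ Dnmt3a KO against WT. The 3.44 M reads of MEP Dnmt3a KO 2 limit the scarce members, where a value of 0 allows up to 0.872 CPM.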
